A study of Mus musculus with 2 samples.

Results

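The genes described here are 10 genes of neutrophil granules, measured in megakaryocyte-erythroid progenitors (MEP), sorted bone marrow cells named for the erythroid and megakaryocyte lineages. There are 4 genes of the primary granule, Mpo, Elane, Prtn3 and Ctsg, and 6 later genes, Ngp, Ltf, Camp, Mmp8, S100a8 and S100a9, out of 21461 nuclear protein-coding genes and 43346 Ensembl gene rows. All 10 were found. They were chosen by name, with their levels and the difference between the libraries already known, so those values are given as a description with no test. The cells came from male C57BL/6J mice aged 5 to 6 weeks, untreated as far as the labels say. The series is 1 group of 2 libraries of total RNA, replicate 2 and replicate 1, each prepared with the ScriptSeq kit after ribosomal RNA was removed, from 100 ng. The labels give each library its own biosample and the same donor entry, so they do not show that the cells came from separate animals.

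Neutrophils store antimicrobial proteins in granules that form one after another as the cell matures. Primary (azurophil) granules fill first, in promyelocytes, with myeloperoxidase and serine proteases. Secondary and tertiary granules fill later, in myelocytes and band cells, with lactoferrin, cathelicidins and collagenase, and the cytosolic calprotectin proteins accumulate alongside. MEP lie on another branch of blood formation, which leads to red cells and platelets.

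The libraries held 48042976 counts in replicate 2 and 39919836 in replicate 1 over gene rows. Erythroid markers were high in both: Gata1, the master factor of that lineage, had 31.3 TPM in replicate 2 and 35.8 TPM in replicate 1, and 8 of 10 erythroid markers reached 1 TPM in both. TPM is a share of transcripts scaled for gene length, so levels of genes can be compared on it. Nuclear protein-coding genes held 20.6% of TPM in replicate 2 and 25.5% in replicate 1. The median log2 ratio of TPM, replicate 2 over replicate 1, was -0.27 over 9033 protein-coding genes with a mean of at least 1 TPM. Folds below are therefore given on counts scaled with edgeR's TMM method, on which that median was 0.014 over 11901 genes with at least 20 counts. Their 95% intervals are exact binomial ones and cover counting error only. In bulk RNA, fewer cells of a type and less RNA per cell cannot be told apart.

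The 2 kinds of granule gene differed between the libraries in opposite directions. All 4 primary granule genes were lower in replicate 2, and all 6 later genes were higher. Primary genes together had 552 counts in replicate 2 and 2025 in replicate 1, and later genes had 6812 and 1526. Primary genes thus took 7.50% of the members' counts in replicate 2 (95% interval 6.90 to 8.12) and 57.0% in replicate 1 (55.4 to 58.7). Counts are not scaled for gene length, so these are not shares of transcripts. Mpo alone held 502 of the 552 primary counts in replicate 2 and 1623 of the 2025 in replicate 1. The medians of primary and later genes stood at 0.23 and 11.4 TPM in replicate 2, and at 2.92 and 3.54 TPM in replicate 1. The medians were thus close in replicate 1 and far apart in replicate 2. The summed levels of primary and later genes were 2.15 and 127 TPM in replicate 2, and 14.8 and 54.5 TPM in replicate 1, where S100a8 and S100a9 were above every primary gene. Over both libraries the median level was 1.57 ± 1.90 TPM for primary genes and 7.45 ± 5.53 TPM for later genes (SD of the library medians, n = 2). On the log2(mean TPM + 1) scale the difference of the medians, primary minus later, was -1.74, with -3.28 in replicate 2 and -0.31 in replicate 1.

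**Figure D1:**
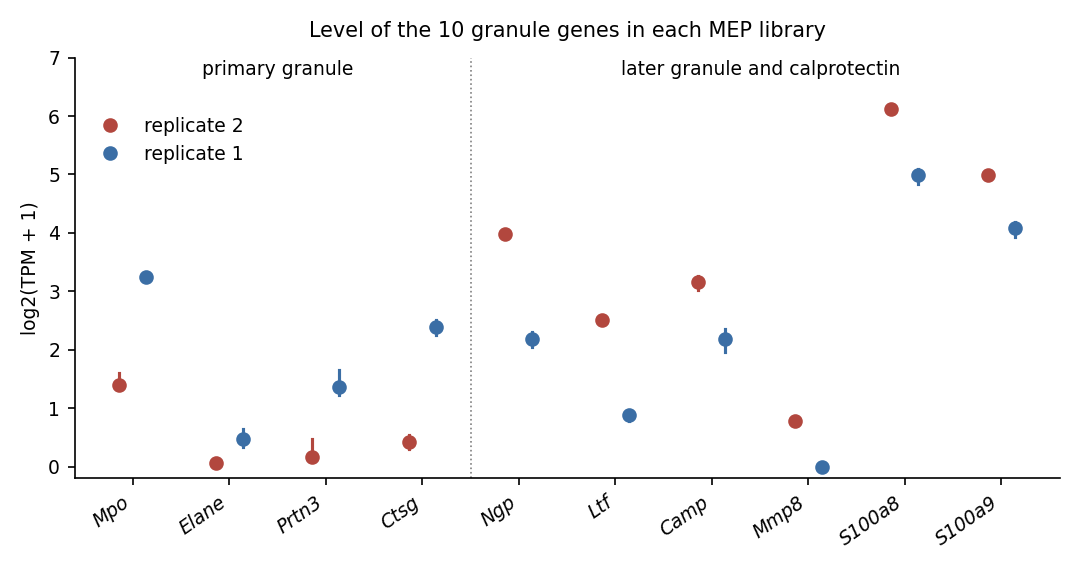
Level of each granule gene as log2(TPM + 1), with replicate 2 left of replicate 1 and vertical lines for the authors' interval of the TPM. The 4 primary genes are lower in replicate 2 and the 6 later genes are higher there, with S100a8 the highest in both libraries.

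Mpo encodes myeloperoxidase, the heme enzyme that makes hypochlorous acid, and was the highest primary gene in both libraries. Mpo (ENSMUSG00000009350.9, mm10 chromosome 11, 87793581 to 87804413) had 1.64 TPM from 502 counts in replicate 2, against 8.53 TPM from 1623 counts in replicate 1. This was 3.75-fold lower in replicate 2 (95% counting interval 3.39 to 4.15). Among protein-coding genes Mpo stood at percentile 62.9 in replicate 2 and 79.8 in replicate 1.

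Ctsg encodes cathepsin G, a chymotrypsin-like protease of the same granule. Ctsg (ENSMUSG00000040314.1, chromosome 14, 56099881 to 56102574) had 0.34 TPM from 35 counts in replicate 2 and 4.26 TPM from 303 counts in replicate 1. It was 10.04-fold lower in replicate 2 (7.06 to 14.7), the widest gap of the 4 primary genes, although its interval overlaps those of Prtn3 and Elane.

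Elane and Prtn3 encode neutrophil elastase and proteinase 3, neighbouring serine protease genes 3.07 kb apart on chromosome 10. Prtn3 (ENSMUSG00000057729.8, 79874476 to 79883174) had 0.12 TPM from 10 counts in replicate 2 and 1.57 TPM from 74 counts in replicate 1, 8.58-fold lower in replicate 2 (4.41 to 18.6). Elane (ENSMUSG00000020125.6, 79886247 to 79888215) had 0.05 TPM from 5 counts in replicate 2 and 0.39 TPM from 25 counts in replicate 1, 5.80-fold lower (2.18 to 19.4). Elane was the lowest primary gene in both libraries, and with so few counts the size of its difference is imprecise. Prtn3 overlaps Plppr3 on the opposite strand, a phosphatase-related gene with 59 counts in replicate 2 and 340 in replicate 1 (3.23 and 1.51 TPM). The overlap runs only from 79874476 to 79874634, at the start of the annotated Prtn3 gene. The strand setting of the counting is not stated, so reads within that stretch cannot be assigned to either gene.

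The promoters of the 4 primary genes are shown because they share the PU box, a core of the site read by the myeloid factor PU.1. Each line gives the 250 bases before the RefSeq start (build GRCm38.p6), 5′ to 3′ on the gene's own strand, and capitals mark the PU box GAGGAA or its reverse TTCCTC, and the C/EBP motif TTGCNNAA or its reverse TTNNGCAA. The windows are chr11:87793534-87793783 (+) for Mpo, chr10:79886062-79886311 (+) for Elane, chr10:79879417-79879666 (+) for Prtn3 and chr14:56102575-56102824 (-) for Ctsg.
Mpo: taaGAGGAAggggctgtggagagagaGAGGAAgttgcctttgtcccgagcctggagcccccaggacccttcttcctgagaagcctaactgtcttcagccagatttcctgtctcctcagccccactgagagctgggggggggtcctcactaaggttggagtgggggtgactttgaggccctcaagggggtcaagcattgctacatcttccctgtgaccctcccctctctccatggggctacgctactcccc
Elane: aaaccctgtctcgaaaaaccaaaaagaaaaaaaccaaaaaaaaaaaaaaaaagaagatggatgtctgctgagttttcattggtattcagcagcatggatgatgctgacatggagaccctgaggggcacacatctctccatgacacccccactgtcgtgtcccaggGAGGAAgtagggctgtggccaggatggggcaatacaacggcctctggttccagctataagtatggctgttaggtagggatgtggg
Prtn3: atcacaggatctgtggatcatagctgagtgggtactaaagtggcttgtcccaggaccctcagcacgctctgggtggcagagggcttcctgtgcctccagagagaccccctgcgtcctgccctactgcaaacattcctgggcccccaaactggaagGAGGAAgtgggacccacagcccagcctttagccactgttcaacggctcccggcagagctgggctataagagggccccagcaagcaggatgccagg
Ctsg: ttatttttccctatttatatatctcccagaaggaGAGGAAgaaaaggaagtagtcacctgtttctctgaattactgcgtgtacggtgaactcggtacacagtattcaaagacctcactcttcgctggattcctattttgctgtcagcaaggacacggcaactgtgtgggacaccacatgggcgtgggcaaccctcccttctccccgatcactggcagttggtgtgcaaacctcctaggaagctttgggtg

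The PU box began at -247 and -224 in Mpo, -85 in Elane, -95 in Prtn3 and -216 in Ctsg, counted from the RefSeq start. None of the 4 windows held the C/EBP motif. GENCODE places the start of Mpo at -203, of Elane at -65 and of Prtn3 at -5191 relative to the RefSeq start, so these windows lie partly or, for Prtn3, wholly inside the gene in that annotation.

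Ngp and Ltf differed most among later genes with counts in both libraries. Ngp encodes neutrophilic granule protein, a relative of the cathelicidins in secondary granules. Ngp (ENSMUSG00000032484.7, chromosome 9, 110419747 to 110423012) had 14.8 TPM from 1861 counts in replicate 2, against 3.57 TPM from 305 counts in replicate 1. It was 5.26-fold higher in replicate 2 (4.66 to 5.96).

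Ltf encodes lactoferrin, the iron-binding protein that defines the secondary granule. Ltf (ENSMUSG00000032496.3, chromosome 9, 111019271 to 111042767) had 4.68 TPM from 1582 counts in replicate 2 and 0.85 TPM from 196 counts in replicate 1, 6.96-fold higher in replicate 2 (5.997 to 8.12). Camp, which encodes the mouse cathelicidin, an antimicrobial peptide precursor, lies on the same chromosome (ENSMUSG00000038357.9, 109847379 to 109849617). Camp had 7.89 TPM from 396 counts in replicate 2 and 3.52 TPM from 121 counts in replicate 1, 2.82-fold higher (2.30 to 3.49). Camp, Ngp and Ltf lie in that order on chromosome 9, with 570.1 kb between Camp and Ngp and 596 kb between Ngp and Ltf.

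Mmp8 encodes neutrophil collagenase and was the only member with 0 counts in 1 library. Mmp8 (ENSMUSG00000005800.2, chromosome 9, 7558456 to 7568485) had 0.72 TPM from 216 counts in replicate 2 and 0 counts in replicate 1, where a count of 0 allows up to 0.0147 TPM (3 counts in that library). With the 0 set to 3 counts it was 62.1-fold higher in replicate 2, a value that leaves out counting error in the 216. The lower limit of its counting interval was 50.1-fold higher. At 0.72 TPM it was still the lowest later gene in replicate 2.

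S100a8 and S100a9 encode the 2 subunits of calprotectin, a calcium- and zinc-binding complex of the cytosol. They are 22.6 kb apart on chromosome 3. S100a8 (ENSMUSG00000056054.8, 90668978 to 90670035) had 68.2 TPM from 1565 counts in replicate 2 and 30.7 TPM from 484 counts in replicate 1, 2.79-fold higher in replicate 2 (2.52 to 3.09). S100a9 (ENSMUSG00000056071.8, 90692632 to 90695721) had 30.7 TPM from 1192 counts in replicate 2 and 15.9 TPM from 420 counts in replicate 1, 2.45-fold higher (2.19 to 2.74). These were the highest members in both libraries, S100a8 at percentile 97.9 of protein-coding genes in replicate 2 and 93.6 in replicate 1. S100a8 is a short gene whose effective length in the tables was 171 bases in replicate 2 and 173 in replicate 1, so its TPM is large for its counts.

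Promoters of 3 later genes that hold the C/EBP motif are shown with the same marks; they were chosen after the search. The windows are chr9:110419558-110419807 (+) for Ngp, chr9:7558179-7558428 (+) for Mmp8 and chr9:111019042-111019291 (+) for Ltf.
Ngp: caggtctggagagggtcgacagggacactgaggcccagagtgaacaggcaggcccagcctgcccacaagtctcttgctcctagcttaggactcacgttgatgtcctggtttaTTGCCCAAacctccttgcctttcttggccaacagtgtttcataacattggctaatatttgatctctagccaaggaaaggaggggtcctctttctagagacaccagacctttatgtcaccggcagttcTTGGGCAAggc
Mmp8: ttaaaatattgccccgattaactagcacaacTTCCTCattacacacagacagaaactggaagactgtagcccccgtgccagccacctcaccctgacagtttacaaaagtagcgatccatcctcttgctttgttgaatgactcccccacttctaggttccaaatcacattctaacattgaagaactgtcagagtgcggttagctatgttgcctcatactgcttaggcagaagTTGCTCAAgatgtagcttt
Ltf: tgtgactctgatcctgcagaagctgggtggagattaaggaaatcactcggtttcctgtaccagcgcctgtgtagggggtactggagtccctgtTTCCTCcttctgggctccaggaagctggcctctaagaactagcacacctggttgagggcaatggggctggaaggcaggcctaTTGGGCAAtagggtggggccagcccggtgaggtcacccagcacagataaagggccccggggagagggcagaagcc

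The C/EBP motif began at -138 and -11 in Ngp, -19 in Mmp8 and -75 in Ltf. It was in 4 of 6 later windows (Ngp, Ltf, Mmp8 and S100a9) and 0 of 4 primary windows, against 10.8% of all 32851 RefSeq windows of 300 bases (250 before and 50 after the start, both strands). The PU box was in 4 of 4 primary and 3 of 6 later windows (Ltf, Mmp8 and S100a8), against 28.3% of all windows. The MYB motif AACNG was in all 10 windows and in 80.3% of all windows. The RUNX motif TGTGGT was in 1 of 4 primary and 2 of 6 later windows (16.8% of all), and the GATA motif AGATAA in 0 of 4 and 2 of 6 (11.2% of all). A match is a description of letters and not a bound site. GENCODE places the start of Ngp at -61, of Ltf at -21 and of Mmp8 at 27 relative to the RefSeq start. The C/EBP match at -11 in Ngp thus lies inside the gene in that annotation.

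**Figure D2:**
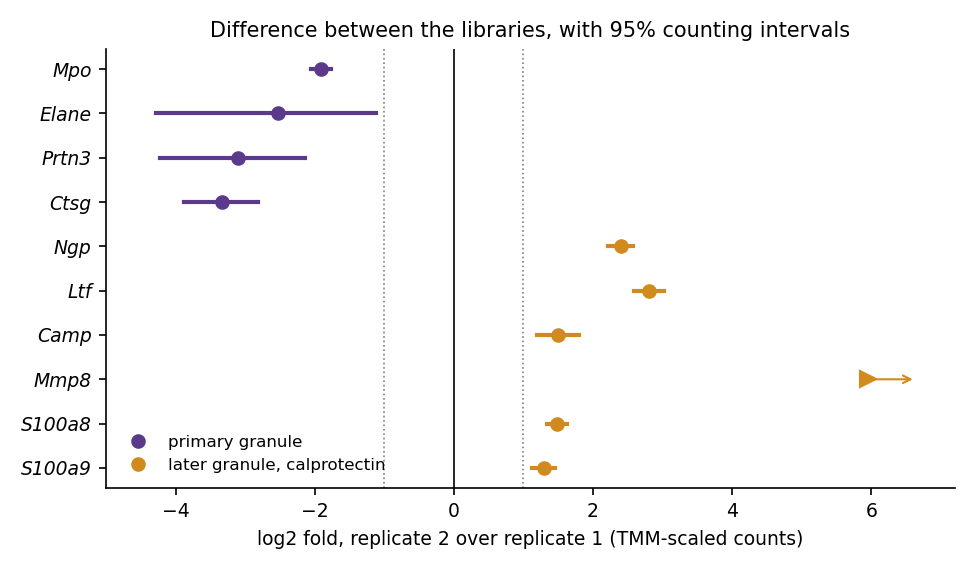
Log2 fold of each granule gene, replicate 2 over replicate 1, on TMM-scaled counts. Lines show the 95% counting interval, the arrow marks Mmp8 with its 0 counts set to 3, and dotted lines mark 2-fold. All 4 primary genes lie left of the lower dotted line and all 6 later genes right of the upper one. Values run from 10.04-fold lower for Ctsg to 62.1-fold higher for Mmp8.

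On TMM-scaled counts all 4 primary genes were over 2-fold lower in replicate 2 and all 6 later genes were over 2-fold higher. Of 11901 nuclear protein-coding genes with at least 20 counts over both libraries, 11.4% were over 2-fold lower and 10.2% over 2-fold higher on the same scale. All 10 members passed that count minimum. The members were chosen with this difference known, so the contrast with those shares is not evidence of its own. On the log2(TPM + 1) scale, which understates folds of low genes, 3 of 4 primary genes were over 2-fold lower (Mpo, Prtn3 and Ctsg) and 3 of 6 later genes over 2-fold higher (Ngp, Ltf and S100a8). The matching shares were 5.5% lower and 1.56% higher among genes with at least 20 counts, and 3.06% lower and 0.867% higher among all nuclear protein-coding genes. The median log2 ratio on this scale was -1.53 for primary and 1.05 for later genes, and 0.85 over all 10. The authors' intervals of the TPM lay apart between the libraries for all 10 members, as they did for 73.2% of genes with at least 20 counts. With 2 libraries of 1 group there is no test of a difference between them.

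**Figure D3:**
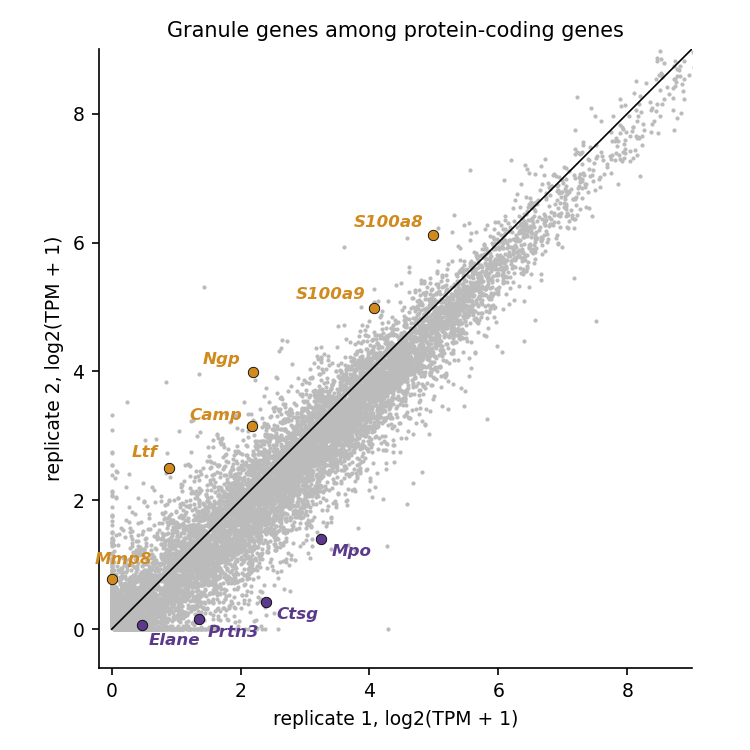
Level of 11901 protein-coding genes with at least 20 counts (grey) and of the 10 granule genes (purple primary, orange later) in replicate 2 (vertical) against replicate 1 (horizontal), both as log2(TPM + 1), with a line at equal values; the highest genes lie outside the axes. The 4 primary genes lie below the line and the 6 later genes above it.

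The order of the levels also differed. In replicate 2 it ran S100a8, S100a9, Ngp, Camp, Ltf, Mpo, Mmp8, Ctsg, Prtn3 and Elane, from highest to lowest. In replicate 1 it ran S100a8, S100a9, Mpo, Ctsg, Ngp, Camp, Prtn3, Ltf, Elane and Mmp8. Neighbours whose intervals overlapped were Ctsg and Prtn3 in replicate 2, and Ctsg with Ngp and Ngp with Camp in replicate 1. Both calprotectin genes led in each library, while Mpo and Ctsg stood above Ngp in replicate 1 and below all later genes except Mmp8 (Mpo), or below every later gene (Ctsg), in replicate 2. A level of 1 TPM in both libraries was reached by 1 of 4 primary genes (Mpo) and 4 of 6 later genes (Ngp, Camp, S100a8 and S100a9).

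The transcript tables, which were not used to choose the genes, gave 1 transcript each for Elane, Ctsg, Ngp, Ltf, Camp, Mmp8 and S100a8. For Mpo, the protein-coding transcript Mpo-203 led with 73.7% of the gene's TPM in replicate 2 and 61.0% in replicate 1, followed by Mpo-201 with 26.3% and 26.9%. For S100a9, S100a9-201 held 77.0% in replicate 2 and 100% in replicate 1, and S100a9-202 held 279 counts in replicate 2 and 0 in replicate 1. For Prtn3, transcripts annotated as retained introns held most of the few counts. Prtn3-204 had 6.89 counts in replicate 2 and 34.4 in replicate 1, Prtn3-203 had 0 and 27.2, and the full protein-coding transcript Prtn3-201 had 3.11 and 12.4. Such shares are estimated from short reads and have no replicate. The gene counts of all 10 members were whole numbers in both libraries.

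Most other primary granule genes differed by less than 2-fold between the libraries. Of 9 genes, 2 were over 2-fold lower in replicate 2 and 0 over 2-fold higher, with a median log2 fold of -0.062. Over all protein-coding genes with at least 20 counts, 11.4% were over 2-fold lower and 10.2% over 2-fold higher. The 2 were Ms4a3, a membrane gene of granulocyte-monocyte progenitors, with 3 counts in replicate 2 and 54 in replicate 1, and Bpi, which encodes a bactericidal protein, with 0 and 21. Srgn, which encodes the proteoglycan serglycin that packs granule proteases, was the highest of this list at 158 TPM in replicate 2 and 270.0 TPM in replicate 1. Lyz2, the lysozyme gene, had 14.3 and 12.3 TPM, the lysosomal enzyme gene Gusb 8.29 and 8.97 TPM, and Ctsc, whose product activates the granule proteases, 4.68 and 4.83 TPM. Those 4 genes are expressed in many cell types outside neutrophils, and the serine protease genes also in monocytes and their progenitors. The inhibitor gene Serpinb1a, whose product blocks elastase and cathepsin G, had 495 counts in replicate 2 and 1480 in replicate 1, 3.47-fold lower (2.18 and 9.57 TPM). Serpinb6a had 216 and 410 counts, 2.20-fold lower, and Slpi had 0 in both.

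Other later granule genes mostly lay on the side of the 6 members. Of 18 genes, 14 had at least 20 counts, and of these 7 were over 2-fold higher in replicate 2 and 2 over 2-fold lower, with a median log2 fold of 1.18. The shares over all genes were 10.2% higher and 11.4% lower. Lcn2, which encodes the secondary granule lipocalin NGAL, had 397 counts in replicate 2 and 83 in replicate 1, 4.12-fold higher (4.21 and 1.31 TPM). Chil3, a chitinase-like gene, had 406 and 101 counts, Cybb, the NADPH oxidase subunit gp91phox, 418 and 66, and Mmp9, the gelatinase of tertiary granules, 104 and 14. Adam8, a membrane protease, had 215 and 24 counts, Pglyrp1, a peptidoglycan-binding protein, 29 and 7, and the metal transporter gene Slc11a1 26 and 0. Retnlg, a resistin-like gene of mature neutrophils, was lower, with 1 count in replicate 2 and 26 in replicate 1, as did Padi4, a histone-modifying enzyme gene, with 29 and 58. The summed TPM of this list was 22.4 in replicate 2 and 28.4 in replicate 1, led by Anxa1 at 6.40 and 12.8 TPM and Cyba at 4.60 and 7.33 TPM. Anxa1 had more counts in replicate 2 (1247 and 877), with an effective length of 1448 bases there and 752 in replicate 1, so its TPM and counts differ in direction. Effective lengths also differed for Cybb (2268 and 741 bases), Mmp9 (1835 and 902) and Padi4 (2090.0 and 256), whose TPM was 1.37 and 0.98, 0.42 and 0.17, and 0.10 and 2.48. Cybb was thus over 2-fold higher in replicate 2 on counts but not in TPM. Itgb2l, Olfm4 and Mmp25 had 0 counts in both libraries.

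Transcription factor genes of the granulocyte lineage were low except for Myb and Runx1, which blood progenitors share. Myb had 108 TPM in replicate 2 and 150 TPM in replicate 1, and Runx1 3.53 and 7.71 TPM. Cebpa, the factor that starts granulocyte development, had 0 counts in replicate 2 and 92 in replicate 1 (0.42 TPM). With the 0 set to 3 counts Cebpa was 35.6-fold lower in replicate 2, a value that leaves out counting error in the 92. Gfi1 had 1 count in replicate 2 and 19 in replicate 1. Cebpe, needed for secondary granule genes in mouse neutrophils, was near 0 in both libraries, with 0 counts in replicate 2 and 1 in replicate 1. Spi1, which encodes PU.1, had 105 and 108 counts. Its effective length was 411 bases in replicate 2 and 1203 in replicate 1, and its TPM was 1.90 and 0.98. Cebpd had 140 and 139 counts. Of 8 factor genes with at least 20 counts, 2 were over 2-fold lower in replicate 2 (Cebpa and Gfi1) and 0 over 2-fold higher. The shares over all genes were 11.4% lower and 10.2% higher. Irf8 lay just under that cut on the other side, with 536 and 233 counts, 1.98-fold higher in replicate 2.

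Surface genes of neutrophils lay on both sides. Csf3r, the G-CSF receptor of granulocyte progenitors and neutrophils, had 39 counts in replicate 2 and 203 in replicate 1, 6.04-fold lower on counts. Its effective length in the tables was 751 bases in replicate 2 and 2707 in replicate 1, and its TPM was 0.39 and 0.82, a smaller difference. Ly6g, the marker of mature mouse neutrophils, had 29 counts in replicate 2 and 0 in replicate 1, and Itgam, which encodes CD11b, 298 and 103. Trem1 had 50 and 17 counts, and Fpr2 11 and 22. Of 9 genes with at least 20 counts, 3 were over 2-fold higher and 2 over 2-fold lower in replicate 2 (10.2% and 11.4% over all genes). Fpr1 had 0 counts in both libraries. Itgb2, which encodes the shared beta chain of the leukocyte integrins, had 2.86 TPM in replicate 2 and 3.79 TPM in replicate 1. Il1b had 19 and 17 counts and 0.13 and 1.16 TPM, with effective lengths of 1130 and 161 bases.

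Most relatives of the calprotectin genes with enough counts differed by less than 2-fold. Of 11 other S100 genes, 6 had at least 20 counts, 1 over 2-fold higher in replicate 2 and 1 over 2-fold lower (10.2% and 11.4% over all genes). S100a4 was the higher one, with 187 counts in replicate 2 and 45 in replicate 1, and S100a14 had 0 and 26. S100a10, the partner of annexin A2, was the highest S100 gene at 59.8 TPM in replicate 2 and 126 TPM in replicate 1, above S100a8 in replicate 1 and below it in replicate 2. S100a1 had 11.8 and 15.3 TPM, S100a13 7.80 and 15.5 TPM, and S100a11 3.88 and 5.16 TPM. S100a3, S100a5, S100a16 and S100b had 0 counts in both libraries.

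**Figure D4:**
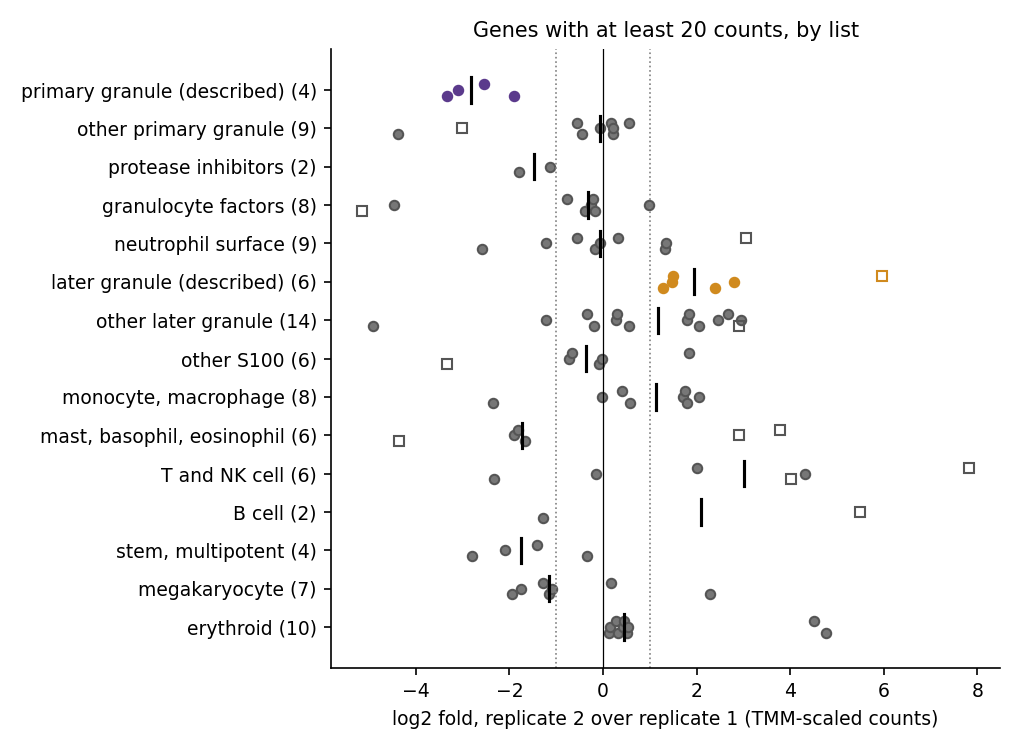
Log2 fold of each listed gene with at least 20 counts, replicate 2 over replicate 1, on TMM-scaled counts; numbers in brackets count the genes, black bars are medians, open squares are genes with 0 counts in 1 library set to 3 counts, and dotted lines mark 2-fold. The 4 primary granule genes lie at negative values and the 6 later granule genes at positive values, with medians of -2.82 and 1.95, beside -0.062 for the other primary and 1.18 for the other later granule genes.

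Markers of other cells also differed between the libraries, and their part in the granule gene values was not tested. The counts of markers past 2-fold stand beside 10.2% higher and 11.4% lower over all genes with at least 20 counts. Monocyte and macrophage markers summed to 10.9 TPM in replicate 2 and 5.79 TPM in replicate 1. Of 8 with at least 20 counts, 4 were over 2-fold higher in replicate 2 and 1 lower, with the chemokine receptor gene Ccr2 at 2007 and 516 counts, Ctss at 373 and 93, Klf4 at 366 and 97, Csf1r at 120 and 25, Ms4a6c at 39 and 171, and Adgre1, which encodes F4/80, at 0 in both. T and NK cell markers summed to 23.0 and 9.71 TPM, with 4 of 6 higher and 1 lower. The granzyme gene Gzma had 792 counts and 0, and the T cell genes Cd3e and Cd3d had 0 in both. Outside that list, the T cell receptor complex genes Cd3g and Cd247 had 3.18 and 1.61 TPM in replicate 2. In replicate 1 they had 0.69 and 0.01 TPM. B cell markers summed to 1.32 and 0.95 TPM, with 1 of 2 genes with at least 20 counts higher and 1 lower, Cd79a at 157 counts and 0, Cd79b at 40 and 84, and Ms4a1 and Pax5 at 0 in both. The other genes of the T and NK cell list were Il2rb at 835 and 36 counts, Klrd1 at 266 and 57, Prf1 at 56 and 0, Gzmb at 12 and 52, and Nkg7 at 440 and 419. Mast cell, basophil and eosinophil markers summed to 3.38 and 10.04 TPM, with 4 of 6 lower in replicate 2 and 2 higher, Cpa3 at 252 and 762 counts, and Mcpt8 and Prg3 at 0 in both.

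Progenitor markers of the other branches differed as well, beside the same shares over all genes (10.2% higher and 11.4% lower). Stem and multipotent markers summed to 7.78 TPM in replicate 2 and 33.8 TPM in replicate 1, with 3 of 4 over 2-fold lower in replicate 2. Cd34, a surface marker of multipotent and granulocyte-monocyte progenitors, had 431 counts in replicate 2 and 2570 in replicate 1, 6.91-fold lower, and Ly6a, which encodes Sca-1, had 0 in both. Meis1 had 4.28 and 12.2 TPM, Hlf 0.16 and 1.24 TPM, and Mecom 1.89 and 1.74 TPM. Megakaryocyte markers summed to 19.0 and 48.9 TPM, with 5 of 7 lower and 1 higher, Pf4 at 8.71 and 23.5 TPM, Itga2b at 5.70 and 19.6 TPM and Gp9 at 1.65 and 0.43 TPM. Erythroid markers summed to 1425 and 1469 TPM, with 2 of 10 higher, the band 3 gene Slc4a1 at 852 and 27 counts and the heme synthesis gene Alas2 at 239 and 9. Summed TPM was thus lower in replicate 2 for the stem and multipotent, megakaryocyte, and mast cell, basophil and eosinophil markers. Summed TPM was higher in replicate 2 for the monocyte and macrophage, T and NK cell, and B cell markers. For the erythroid markers the sums were close, and their median log2 fold on TMM-scaled counts was 0.44. With 2 libraries every list lies on one side or the other, and a link of any list to the granule genes was not tested.

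Neighbouring genes on the chromosome had levels of their own. Within 50 kb of the 10 members lay 31 other protein-coding genes, 13 of which had 0 counts in both libraries and 12 a mean of at least 1 TPM. Next to Mpo, the related lactoperoxidase gene Lpo had 0 counts in both, while Supt4a had 16.2 and 14.8 TPM, Mks1 1.81 and 0.63 TPM and Tspoap1 1.15 and 0.92 TPM. Next to Elane, Cfd, which encodes complement factor D, had 0 counts in both, as had Gm26602, and Misp near Prtn3, while the splicing regulator gene Ptbp1 had 43.5 TPM in replicate 2 and 39.8 TPM in replicate 1, R3hdm4 8.52 and 9.46 TPM, Med16 2.12 and 2.59 TPM and Arid3a 1.15 and 1.61 TPM. Kiss1r had 0 counts in replicate 2 and 31 in replicate 1. Around Ctsg, the protease genes Mcpt4, Mcpt8, Gzme and Gzmd of the same cluster all had 0 counts in both. Beside Mmp8, Mmp10 had 0 counts and Mmp27 had 39 in replicate 2 and 34.0 in replicate 1. On either side of the calprotectin pair, S100a7a and Pglyrp4 had 0 counts and S100a6 had 14 in replicate 2 and 0 in replicate 1. Near Camp, the cell cycle phosphatase gene Cdc25a had 11.2 and 11.1 TPM and Nme6 4.63 and 6.25 TPM, and Spink8 had 0 counts. Near Ngp, the sterol sensor gene Scap had 4.78 and 3.32 TPM, Klhl18 1.61 and 1.87 TPM and Ptpn23 0.68 and 0.45 TPM. Near Ltf, Ccrl2 had 160 and 81 counts, Lrrc2 0 and 61, and Rtp3 0 in both.

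The genes with the most similar pair of levels were found by the Euclidean distance of log2(TPM + 1) over the 2 libraries, among protein-coding genes outside the lists. Nearest to S100a8 were the alpha globin gene Hba-a2 (distance 0.139), whose near-identical copy may share its reads, Ctse (0.296) and Hist1h3f (0.410). Nearest to S100a9 were Mrps23 (0.0949), Xpnpep1 (0.120) and Alad (0.131). Nearest to Ngp were Eri3 (0.117), Gna11 (0.320) and Ntpcr (0.369). A distance over 2 libraries carries little information on a shared pattern.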

How the data were processed

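Per the file headers, the authors deposited expected counts (estimated reads per gene, not normalized), TPM, posterior mean TPM, FPKM, bounds of the TPM (kept here as a score whose level is not stated) and, per transcript, the percent of the gene's TPM. The deposited text files name build mm10 and GENCODE M4. Neither names the program that made the estimates. Symbols and coordinates came from GENCODE M21 on the same assembly (42462 of 43346 gene IDs matched without version), and promoter windows from RefSeq (GRCm38.p6; 10 of 10 members matched).

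Counts were rounded and scaled with edgeR 4.0.16 (TMM, genes with at least 10 counts) or, as an alternative, DESeq2 1.42.0 size factors in R 4.3.3. Other steps used Python 3.11.15, pandas 2.3.3, scipy 1.17.1 and matplotlib 3.10.9. Folds between libraries used no pseudocount, with 0 counts set to 3, and log2 ratios of TPM a pseudocount of 1. The ratio calculation was tested on simulated data. No molecular identifiers are in the tables, so intervals and floors cover counting error only.

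The members, lists and settings were chosen with earlier results of these data known. The rule for named genes took all members, from each list the 4 highest, those at 0 in both libraries (where 4 or fewer) and those past 2-fold with at least 20 counts, the neighbours within 50 kb and the 3 nearest patterns; for other cell types the text names part of these, and 1 surface gene is not reported here.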

Additional observations from a re-analysis of the deposited data

How the results depend on the processing

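The direction of each of the 10 member ratios was the same in all 80 values from 8 other settings (pseudocount 0.1, posterior mean TPM, FPKM, TPM rescaled over nuclear protein-coding genes, globins left out, TMM and DESeq2 scaling, and 2 chosen after the data were seen: TMM counts without a pseudocount and ratios relative to the median gene), and 44 of them differed from the ratio in TPM by more than the counting error. The number of members over 2-fold higher in replicate 2, 3 in TPM, was 5 with a pseudocount of 0.1 and 6 with FPKM, rescaled TPM, TMM scaling with or without a pseudocount, DESeq2 scaling, relative to the median gene or at 1.5-fold. The number over 2-fold lower, 3, lay between 2 (relative to the median gene) and 4. The median log2 ratio over all 10 members, 0.85, was 1.29 with FPKM, 1.33 with rescaled TPM, 1.23 with TMM and with DESeq2 scaling, 1.39 with TMM counts without a pseudocount and 1.12 relative to the median gene. Rescaled TPM put the primary median at 6.27 and the later median at 34.6. At least 10 counts in both libraries detected 8 members, against 5 at 1 TPM.

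Without replicate 1 the difference of the medians, primary minus later, was -3.28 and without replicate 2 it was -0.31, so its size rests on replicate 2. No paired analysis was possible because the series has 1 group. Depth limits Elane and Prtn3 in replicate 2, with 5 and 10 counts.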
